A study of Mus musculus with 21 samples.

Results

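The genes described here are *agrp*, which encodes agouti-related peptide (AgRP), and *npy*, which encodes neuropeptide Y (NPY). They were taken by gene symbol from a table of reads per gene, and these 2 rows of 21654 were followed through all 21 libraries of the ventral hypothalamus (VH). All mice were C57BL/6J males, 12 to 14 weeks old on arrival. They ate regular chow (RC) or a high-fat diet (HFD) for 8 to 10 weeks and were then kept on that diet (no diet switch, NoDS) or moved to the other one (diet switch, DS). Tissue was taken on day 7 after the switch at about 6 h after lights on (ZT6), and every mouse, in all 4 groups, had first been kept awake for 3 h. The groups were RC NoDS (5 libraries), RC → HFD (6 libraries), HFD → RC (5 libraries) and HFD NoDS (5 libraries). Each library held equal amounts of RNA from 2 mice of the same group, so the spread between libraries is that between pools and not between single animals. In the study, punches of VH tissue were kept or dropped by the measured expression of *agrp* and *pomc* against *hcrt*. The level of *agrp* therefore took part in choosing the tissue, and the part of that choice in the levels below was not tested.

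AgRP and NPY are made by the same neurons of the arcuate nucleus, which drive feeding and which also release GABA. AgRP blocks the melanocortin receptors MC3R and MC4R, which are activated by α-MSH from the neighbouring POMC neurons, while NPY acts on the Y receptors. In general both transcripts rise with fasting, ghrelin increases them, and leptin and insulin lower them.

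Capitals in the coding sequences mark a part of the active peptide in *agrp* and all of it in *npy*. The sequences are shown because the reads counted here come from these 2 mRNAs. They were read from the transcripts of mouse build NCBIM37, 5′ to 3′ in the sense of the mRNA. In *agrp* the capitals mark the 3 codons for Arg-Phe-Phe (bases 328 to 336 of 396), the core of the peptide that contacts the melanocortin receptors, and the cysteine-rich end is shown, bases 247 to 396. In *npy* they mark the 36 codons of mature NPY (bases 85 to 192 of 294), which stand between the signal peptide and the Gly-Lys-Arg site where the precursor is cleaved and amidated.
agrp coding sequence, end: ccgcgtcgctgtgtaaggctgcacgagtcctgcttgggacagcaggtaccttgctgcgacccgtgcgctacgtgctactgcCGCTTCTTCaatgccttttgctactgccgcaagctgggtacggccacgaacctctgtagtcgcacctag
npy coding sequence: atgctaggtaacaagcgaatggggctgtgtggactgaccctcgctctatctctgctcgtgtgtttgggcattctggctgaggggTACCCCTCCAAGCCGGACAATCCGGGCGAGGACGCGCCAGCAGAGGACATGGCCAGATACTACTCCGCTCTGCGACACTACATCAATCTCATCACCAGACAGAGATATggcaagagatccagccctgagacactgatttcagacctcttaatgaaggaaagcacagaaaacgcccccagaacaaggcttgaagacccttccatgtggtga

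*Agrp* (ENSMUSG00000005705) lies on the minus strand of chromosome 8, chr8:108090600-108092198 in NCBIM37, with 5 annotated exons that cover 659 bases. The closest gene, *atp6v0d1*, is 652 bases away on the same strand. *Npy* (ENSMUSG00000029819) lies on the plus strand of chromosome 6, chr6:49772709-49779506, with 4 exons that cover 566 bases, and its closest gene, *mpp6*, is 280733 bases away. Neither gene overlaps another annotated gene, so no overlap of annotated genes bears on either read count.

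The region upstream of *npy* is shown because *npy* separated the libraries by diet. Of the 2 genes, 1 was matched in the RefSeq promoter table (build GRCm38.p6). The 250 bases before the *npy* start site, chr6:49822460-49822709 on the plus strand, are given with the single GC box (GGGCGG) in capitals.
npy promoter: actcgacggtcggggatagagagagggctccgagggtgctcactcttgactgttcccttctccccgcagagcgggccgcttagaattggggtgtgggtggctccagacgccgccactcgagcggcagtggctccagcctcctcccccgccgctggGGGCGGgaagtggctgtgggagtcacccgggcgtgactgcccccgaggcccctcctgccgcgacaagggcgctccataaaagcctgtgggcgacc
The GC box starts at base -95, and these letters occur on either strand in 32.7% of the 32851 promoters of the same length. The GC content of this window was 69.2% against a median of 52.4% over all promoters. On both strands there was no match to TATAAA (present in 12.4% of promoters), to the cyclic AMP response element TGACGTCA (1.5%) or its core TGACG (17.8%), to the STAT motif TTCNNNGAA (7.0%), to the FOXO motif GTAAACA (3.2%) or to the E-box CANNTG (66.2%). TGACG lies within TGACGTCA, and a missing match says only that these letters are not in this window.

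The authors re-sampled every library to nearly the same number of gene reads, and the totals were 16380781 to 16390598. Read counts of 1 gene can therefore be set side by side between libraries. *Agrp* averaged 837 reads a library, rank 4888 of 21654 genes, and *npy* averaged 3040 reads, rank 1129. Read totals did not show how many different molecules had been sequenced. From the share of low genes with no read, the number of distinct molecules was estimated at a mean of 6180000 in RC NoDS, 3670000 in RC → HFD, 2670000 in HFD → RC and 2600000 in HFD NoDS. By the same estimate the *agrp* reads stood for 341 to 645 molecules a library in RC NoDS and for 50 to 212 in the other groups.

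In RC NoDS the 5 libraries had 1289, 1139, 1212, 1442 and 1230 *agrp* reads. In RC → HFD the lowest library had 426, the median was 536 and the highest had 629. All 6 RC → HFD libraries were thus below every RC NoDS library. In HFD NoDS the libraries had 426, 678, 574, 902 and 616 *agrp* reads, which was also below every RC NoDS library. In HFD → RC they had 998, 1276, 623, 544 and 1476. Of these, 1 library exceeded every RC NoDS library, while 2 lay inside the range of HFD NoDS.

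The *npy* reads followed the same order. The RC NoDS libraries had 5015, 4378, 4258, 5713 and 4745 reads. In RC → HFD the lowest had 1390, the median was 1937 and the highest had 2295. These groups did not overlap. The HFD NoDS libraries had 1639, 1551, 2103, 2638 and 2006 *npy* reads, and the HFD → RC libraries had 3058, 5214, 2669, 2832 and 4574. The lowest HFD → RC library, at 2669, stood just above the highest HFD NoDS library, at 2638. Across all 4 groups, every one of the 10 libraries on RC at collection had more *npy* reads than any of the 11 libraries on HFD. *Npy* was the single gene of 12768 for which this held (0.00783%).

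**Figure D1:**
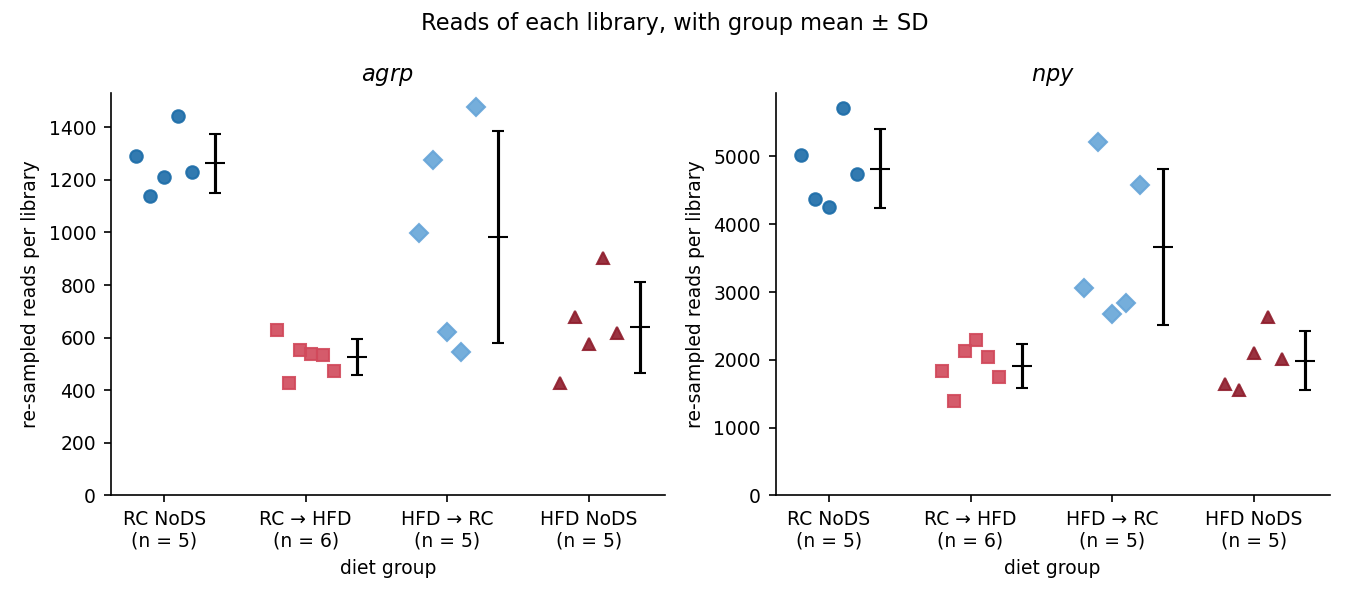
Reads of *agrp* and *npy* (vertical axes, re-sampled reads per library) in the 4 diet groups, each point 1 library, with the group mean ± SD. *Npy* runs from 2669 to 5713 reads in the libraries on RC at collection and from 1390 to 2638 in those on HFD, and the HFD → RC libraries are the most spread.

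Per length of exon, *npy* was the more abundant of the pair. The *agrp* level was 117 ± 10.6 RPKM (reads scaled to exon length and to the library total; mean ± SD over the 5 or 6 libraries) in RC NoDS and 48.7 ± 6.44 in RC → HFD. It was 91.1 ± 37.4 in the HFD → RC libraries and 59.2 ± 16.1 in those of HFD NoDS. The *npy* level was 520 ± 62.7, 206 ± 34.7, 396 ± 124 and 214 ± 46.6 RPKM in the same order. On this scale *pomc*, the precursor of α-MSH, had 434 ± 105, 571 ± 118, 432 ± 122 and 563 ± 112 RPKM. *Npy* was thus above *pomc* by its group mean in RC NoDS and below it in the other 3 groups. Relative to RC NoDS, mean *agrp* was 41.6% in RC → HFD, 77.9% in HFD → RC and 50.6% in HFD NoDS, and mean *npy* was 39.6%, 76.1% and 41.2%. In the order of the group means of *agrp*, each group overlapped the next, and no neighbours passed the test given below. In the same order of *npy*, the neighbours HFD → RC and HFD NoDS did not overlap, while RC NoDS overlapped HFD → RC and HFD NoDS overlapped RC → HFD. In bulk tissue, fewer AgRP neurons in the punch and less RNA in each neuron cannot be told apart.

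The pools of mice that went back to RC varied most for both peptides. The coefficient of variation (CV) of *agrp* was 9.01% in RC NoDS, 13.2% in RC → HFD, 41.0% in HFD → RC and 27.2% in HFD NoDS, where the median CV over all tested genes was 11.9%, 12.96%, 14.96% and 15.5%. The CV of *npy* was 12.1%, 16.9%, 31.3% and 21.8%. Among all genes the HFD → RC values stood at percentile 93.5 for *agrp* and 86.4 for *npy*. The HFD → RC libraries with the most *agrp*, numbers 14 and 17, had estimates of 1910000 and 1250000 distinct molecules against 2440000 to 4380000 in the other 3, and their part in the spread was not tested.

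The diet at collection was compared over both earlier diets, as the mean of the RC → HFD minus RC NoDS difference and the HFD NoDS minus HFD → RC difference on the log2 scale. Both peptides were lower on HFD. *Npy* was 2.15-fold lower (log2 fold change -1.10, SE 0.110, 95% confidence interval -1.33 to -0.88, edgeR quasi-likelihood test with Benjamini-Hochberg adjusted p = 1.03e-06) and ranked 1 of 12768 genes by p. *Agrp* was 1.91-fold lower (-0.93, SE 0.136, -1.21 to -0.65, adjusted p = 7.77e-04) and ranked 3. At the adjusted p of 0.15 used by the study, 6 genes passed (0.047% of those tested; 0.0235% lower). Apart from the pair these were *trh*, *cartpt*, *serpina3n* and *rbm3*. Both calls held in every fit with 1 library left out, with *agrp* between -1.01 and -0.84 and *npy* between -1.16 and -1.02. Covariates were then added, among them an arcuate score, the mean log2 level of *kiss1*, *tac2*, *ghrh*, *tbx3*, *pomc* and *prlr*. With the distinct molecules as a covariate the differences were -0.99 for *agrp* and -1.17 for *npy*, and with this score of other arcuate markers they were -0.96 and -1.15. With the share of ribosomal RNA reads as a covariate they were -0.80 (adjusted p = 0.102) and -1.03, and with *hcrt* they were -1.01 and -1.08.

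Both peptides were lower after a week of HFD that followed RC. In RC → HFD against RC NoDS the log2 fold change of *agrp* was -1.24 (SE 0.188, 95% interval -1.62 to -0.85, edgeR adjusted p = 0.00154) and that of *npy* was -1.31 (SE 0.151, -1.622 to -1.003, adjusted p = 2.36e-05). They ranked 3 and 1 among the 5 genes that passed (0.0392%; 0.0235% lower). Both were among the 1.17% of genes whose libraries did not overlap between these groups. In HFD NoDS against RC NoDS, which shares its RC NoDS libraries with that comparison, the values were -0.97 for *agrp* (SE 0.197, -1.37 to -0.56, adjusted p = 0.0507) and -1.26 for *npy* (SE 0.160, -1.59 to -0.94, adjusted p = 7.79e-05). Which of these differences of *npy* was the larger changed with the covariate (-1.17 and -1.28 with the arcuate score). Here 0.0783% of genes passed (0.0157% lower) and 0.893% did not overlap, both peptides among each. The *agrp* call in HFD NoDS was lost in 5 of 21 fits with 1 library left out, at adjusted p = 0.166 and 0.244 without RC NoDS libraries 1 and 5 and at 0.231, 0.226 and 0.155 without HFD NoDS libraries 19, 21 and 24. It was also lost once the ribosomal RNA share was a covariate (-0.77, adjusted p = 1.00) and with robust dispersion (adjusted p = 0.255).

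The groups that now ate RC or HFD after having eaten HFD were compared next. In HFD NoDS against HFD → RC, *npy* was lower (-0.89, SE 0.159, 95% interval -1.22 to -0.57, edgeR adjusted p = 0.0314), 1 of the 0.0705% of genes that passed (0.00783% lower) and 1 of the 1.02% without overlap. *Agrp* did not pass (-0.63, SE 0.197, -1.03 to -0.23, adjusted p = 0.481), and its libraries overlapped. The difference between the peptides in this pair did not pass either (log2 ratio of *npy* to *agrp* -0.30, exact permutation adjusted p = 0.274). The *npy* call was lost without HFD → RC library 17 (adjusted p = 0.204) or HFD NoDS library 19 (adjusted p = 0.158), with ribosomal RNA as a covariate (-0.80, adjusted p = 0.250), with robust dispersion (adjusted p = 0.162) and in a fit of these groups alone (adjusted p = 0.341).

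HFD → RC and RC → HFD were matched for body weight in the study and differed both in the diet of the last week and in the diet of the earlier 8 to 10 weeks. In this pair the current diet, the earlier diet and the direction in which weight was moving cannot be told apart. *Npy* was higher in HFD → RC (0.94, SE 0.151, 95% interval 0.63 to 1.25, edgeR adjusted p = 0.0116) and was the only gene of 12768 that passed in this pair in edgeR (0.00783%; 1 gene in limma and 5 in DESeq2), one of the 0.486% without overlap. With robust dispersion *npy* no longer passed (0.94, adjusted p = 0.530). *Agrp* had nearly the same log2 fold change, 0.90 (SE 0.188, 0.52 to 1.29), and ranked 2 by p, with an unadjusted p of 4.75e-05 and an adjusted p of 0.303. It passed in DESeq2 (adjusted p = 0.120), without a read minimum (0.0772) and with the arcuate score as a covariate (0.0721). It did not pass in limma (0.81, adjusted p = 0.921), nor with *hcrt* (0.83, adjusted p = 0.999) or ribosomal RNA (0.82, adjusted p = 0.752) as a covariate. Its libraries overlapped, as 3 of the 5 HFD → RC libraries exceeded every RC → HFD library. Without HFD → RC library 16 *agrp* passed at 1.06 (adjusted p = 0.00887), without library 15 at 1.02 (adjusted p = 0.0317), and without HFD NoDS library 23, which is in neither group, at 0.90 (adjusted p = 0.116).

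The earlier diet, compared over both current diets, did not pass the test for either peptide. The log2 fold change of earlier HFD against earlier RC was -0.03 for *agrp* (95% interval -0.31 to 0.25, edgeR adjusted p = 0.978) and -0.16 for *npy* (-0.38 to 0.06, adjusted p = 0.784), where 0.0705% of genes passed. With the distinct molecules as a covariate it was -0.19 for *agrp* and -0.30 for *npy*, and neither passed. In HFD → RC against RC NoDS the values were -0.34 for *agrp* (-0.73 to 0.06, adjusted p = 0.692) and -0.37 for *npy* (-0.69 to -0.05, adjusted p = 0.534), where 0.282% of genes passed and 1.32% did not overlap, neither peptide among them. Here *agrp* was -0.22 without HFD → RC library 15, -0.18 without library 16 and -0.53 without library 17. With the arcuate score as a covariate *agrp* was -0.19 and *npy* -0.16, and with the distinct molecules they were -0.58 and -0.61. None of these values passed. In HFD NoDS against RC → HFD the differences were 0.27 for *agrp* (-0.11 to 0.66, adjusted p = 0.768) and 0.05 for *npy* (-0.26 to 0.36, adjusted p = 0.967), where 0.0157% passed. These intervals do not exclude differences up to their bounds. Whether the current diet made a different difference after HFD than after RC was tested as an interaction. It was 0.61 for *agrp* (0.06 to 1.17, unadjusted p = 0.0321, adjusted p = 0.498) and 0.42 for *npy* (-0.03 to 0.87, adjusted p = 0.599), so that a difference between the 2 histories was not shown; 0.0313% of genes passed. With the arcuate score as a covariate the interaction was 0.35 for *agrp* and 0.049 for *npy*. With the distinct molecules it was 0.79 and 0.61, and with the ribosomal RNA share 0.69 and 0.45, none of which passed. Across all 4 groups both passed, *agrp* at an adjusted p of 0.00259 and *npy* at 4.74e-06, with 0.149% of genes.

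**Figure D2:**
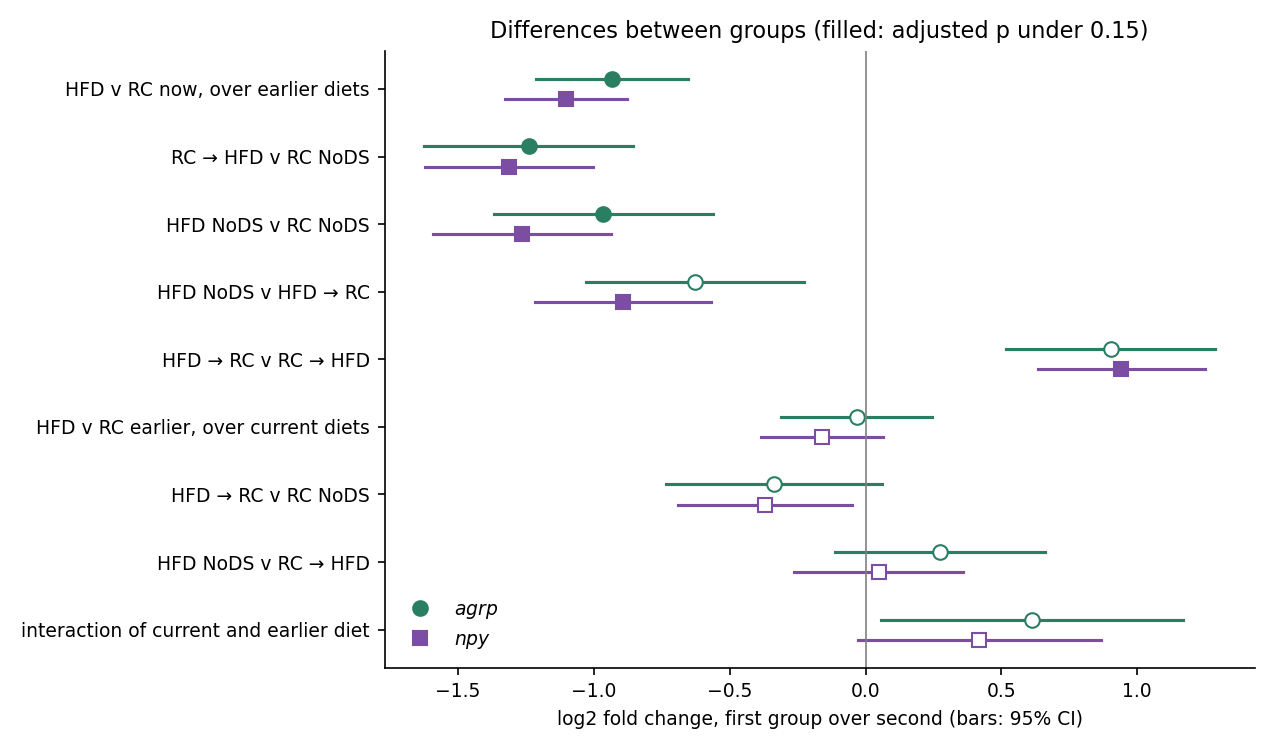
Log2 fold change of *agrp* (circles) and *npy* (squares) in each comparison, first group over second, with 95% confidence intervals; filled symbols passed an edgeR adjusted p of 0.15. The pair lies at -0.93 and -1.10 for the current diet and near 0 for the earlier diet.

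The relation of the 2 transcripts was then followed inside single libraries. For RC NoDS libraries the *npy* reads were 3.81 ± 0.174 times the *agrp* reads (mean ± SD), and for RC → HFD libraries 3.64 ± 0.479 times. The ratio was 3.95 ± 0.897 with HFD → RC and 3.20 ± 0.622 with HFD NoDS. The ratio ran from 2.29 in HFD NoDS library 20 to 5.21 in HFD → RC library 16. None of the 6 pairs of groups passed an exact permutation test, adjusted over the 18 tests of 3 ratios. The lowest adjusted p of the 6, in HFD NoDS against RC NoDS, was 0.127 at a log2 difference of -0.28.

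The ratio of each peptide to *pomc*, from the opposing neurons of the same punch, was then compared between the groups. *Npy* to *pomc* passed between the current diets after either earlier diet, and *agrp* to *pomc* passed after RC. *Agrp* to *pomc* was 0.183 ± 0.0361 in RC NoDS, 0.0573 ± 0.0103 in RC → HFD, 0.151 ± 0.0872 in HFD → RC and 0.0685 ± 0.00976 in HFD NoDS. It was lower in RC → HFD than in RC NoDS (log2 difference -1.67, exact permutation test, two-sided, adjusted p = 0.00974) and lower in HFD NoDS than in RC NoDS (-1.41, exact adjusted p = 0.0204). It was higher in HFD → RC than in RC → HFD (1.23, exact adjusted p = 0.00974), and here the ratios did not overlap although the *agrp* reads did. Between HFD NoDS and HFD → RC it did not pass (-0.96, exact adjusted p = 0.0714).

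*Npy* to *pomc* was 0.698 ± 0.143 in RC NoDS, 0.206 ± 0.0296 in RC → HFD, 0.543 ± 0.214 in HFD → RC and 0.218 ± 0.0452 in HFD NoDS. The log2 differences were -1.75 for RC → HFD against RC NoDS and 1.33 for HFD → RC against RC → HFD (exact adjusted p = 0.00974 for both). They were -1.68 for HFD NoDS against RC NoDS and -1.26 for HFD NoDS against HFD → RC (exact adjusted p = 0.0204 for both). For neither peptide did the ratio pass in HFD → RC against RC NoDS (-0.44 and -0.42, exact adjusted p = 0.388 and 0.274) or in HFD NoDS against RC → HFD (0.26 and 0.06, exact adjusted p = 0.191 and 0.754). These ratios hold the *pomc* difference as well, which was 0.40 on the log2 scale for the current diet and did not pass by itself (edgeR adjusted p = 0.745). *Pomc* is also made in the pituitary, whose 6 markers summed to 14.5 to 56.2 CPM (counts scaled to the library total) in RC NoDS, 8.11 to 118 in RC → HFD, 7.20 to 177 in HFD → RC and 10.3 to 51.8 in HFD NoDS; their part in the ratios was not tested.

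**Figure D3:**
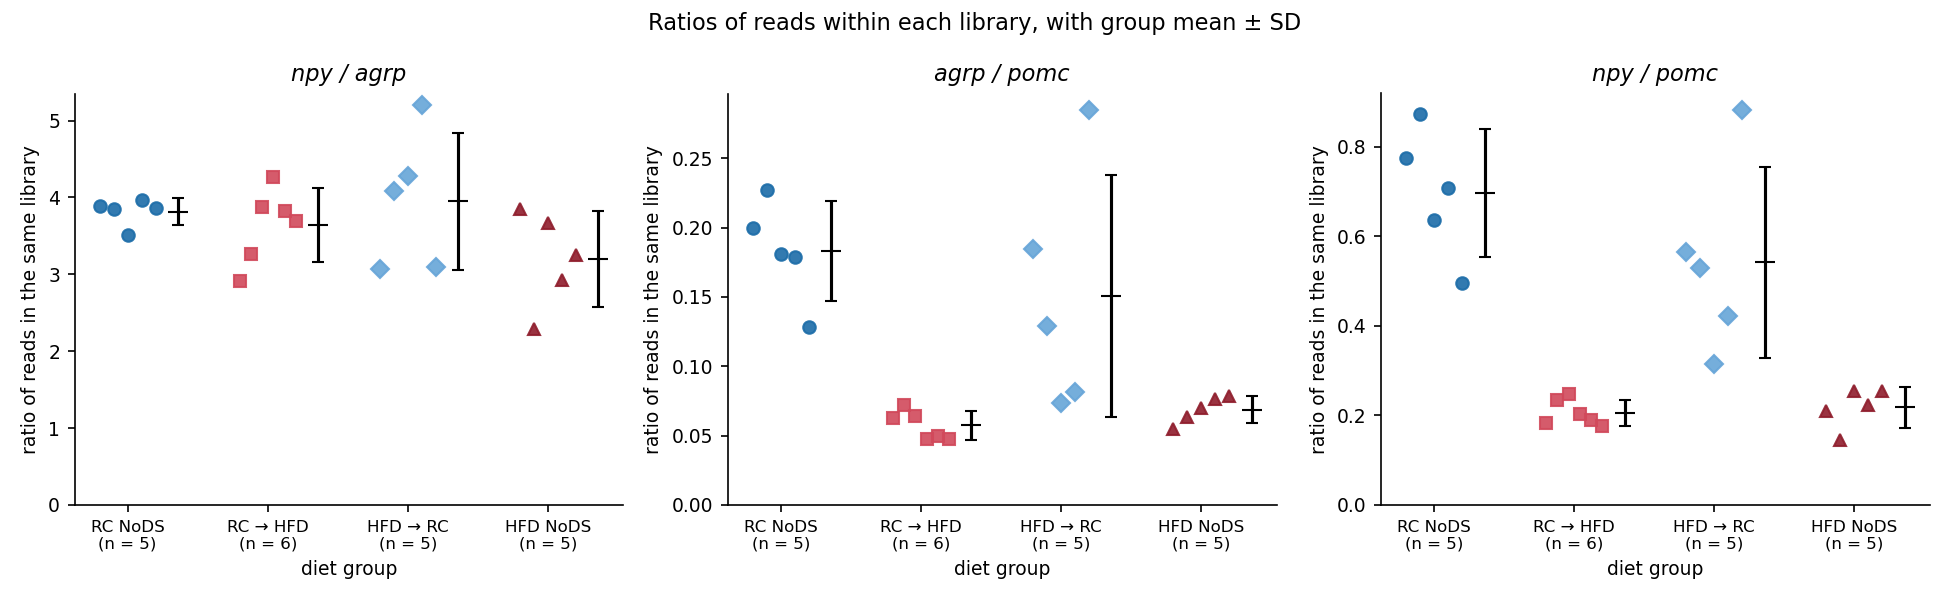
Ratios of reads within each library (vertical axes start at 0) in the 4 diet groups, each point 1 library, with the group mean ± SD. *Npy* to *agrp* stays between 2.29 and 5.21 in all groups, whereas both ratios to *pomc* are lower in RC → HFD than in RC NoDS in every library.

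The peptides also moved together among libraries of the same group. After the group means were removed from the log2 CPM, Pearson's r between *agrp* and *npy* was 0.772 over 21 libraries (100000 permutations within groups, p = 0.00298, adjusted over 7 relations 0.0104) and Spearman's rho was 0.697 (p = 0.00645, adjusted 0.0203). Without HFD → RC libraries 16 and 17, the farthest from the median of *agrp*, r was 0.744. Both peptides lay on the same side of their group means in 16 of 21 libraries, a count that was also 16 for *agrp* with *cartpt* and 17 for *npy* with *cartpt*. The largest shared shifts were in HFD → RC library 14 (0.48 for *agrp* and 0.56 for *npy*, log2), HFD → RC library 17 (0.69 and 0.37) and HFD NoDS library 23 (0.54 and 0.43) upward. HFD → RC libraries 15 (-0.55 and -0.40) and 16 (-0.75 and -0.32) were low in both. The opposite signs were in HFD NoDS library 20 (0.13 and -0.33), HFD → RC library 13 (0.13 and -0.21), RC → HFD library 7 (0.27 and -0.04) and, with smaller shifts, HFD NoDS libraries 21 and 24. Within RC → HFD, the single group with 6 libraries, r was 0.657 (exact permutation p = 0.156) and rho 0.600 (exact p = 0.242).

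The deviations were set beside those of other arcuate genes to see whether the libraries shared more than this pair. The arcuate score includes *pomc*, so its relations are not separate from those of *pomc*. *Npy* correlated with a score of 6 other arcuate markers (r = 0.743, permutation p = 1e-04, adjusted 7.00e-04; rho = 0.716; r = 0.669 without HFD → RC library 14 and HFD NoDS library 23) and with *cartpt* (r = 0.584, adjusted p = 0.0348; rho = 0.610; r = 0.593 without the same libraries). *Agrp* did not pass with the score (r = 0.401, adjusted p = 0.160; rho = 0.470) or with *cartpt* (r = 0.296, adjusted p = 0.361; rho = 0.393). Without HFD → RC libraries 16 and 17 these values were 0.558 and 0.582. Whether the peptides differ in these relations was not tested. Neither peptide passed with *pomc* (r = 0.210 for *agrp* and 0.383 for *npy*, adjusted p = 0.441 and 0.188), and without the 2 farthest libraries r was 0.445 for *agrp* and 0.149 for *npy*. The arcuate score thus moved with *npy* from library to library, and its part in the correlation of the pair was not tested.

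**Figure D4:**
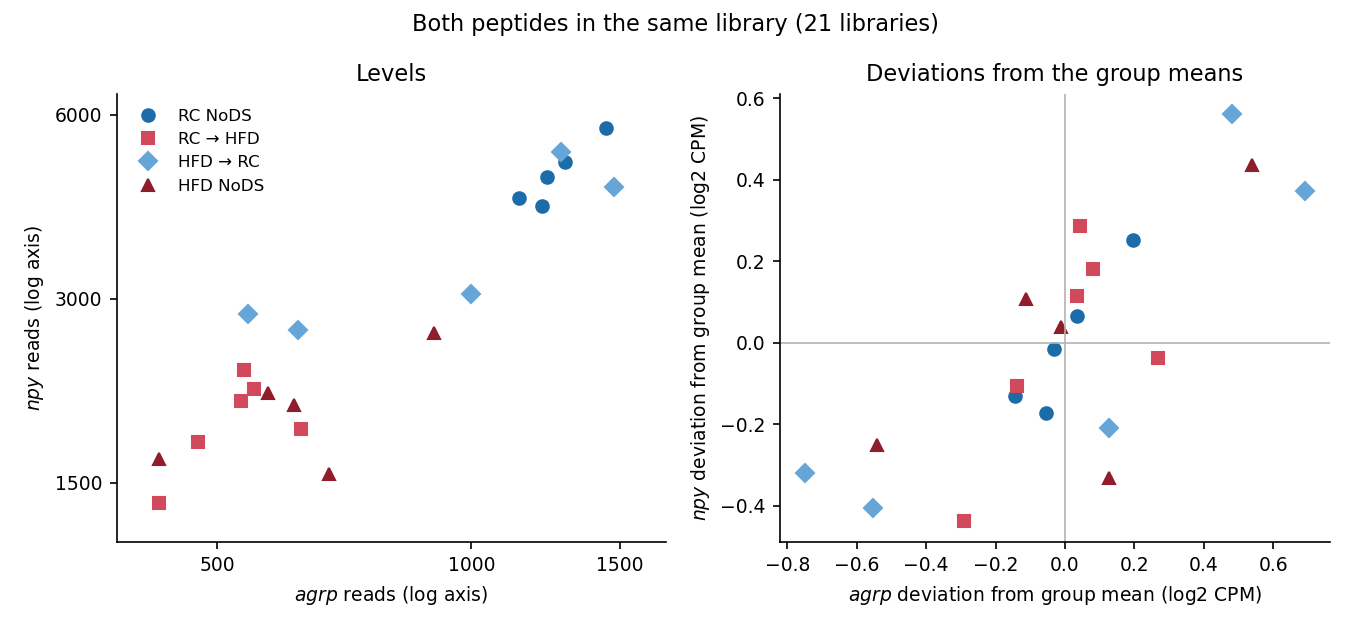
*Agrp* against *npy* in the same 21 libraries, as reads on log axes (left) and as deviations of log2 CPM from the group means (right), with 1 symbol for each diet group. The deviations of the pair have r = 0.772, and libraries at the upper right and lower left belong mostly to HFD → RC and HFD NoDS.

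Of all 12768 genes, the gene whose level was most like that of *agrp* over the 21 libraries was *npy* (r = 0.922), and the reverse held for *npy*. As the groups differ in both, these r values contain the differences between the groups and are given without a test, beside a median over all genes of 0.0455 for *agrp* and 0.0516 for *npy*. After *npy*, the genes most like *agrp* were *rps20* (0.801), *npy2r* (0.792), *rpl23* (0.780) and *rpl4* (0.773). The *npy2r* gene encodes the Y2 receptor, the autoreceptor of NPY neurons, and the others encode ribosomal proteins. After *agrp*, those most like *npy* were *npy2r* (0.807), the ghrelin receptor gene *ghsr* (0.746), *rps20* (0.741) and *map3k7* (0.716), a kinase. With the group means removed, *npy* ranked 16 for *agrp* and *agrp* ranked 19 for *npy*. The leading genes were then *E130203B14Rik* (0.863), *ghdc* (0.837), *apoc3* (0.835), *emilin1* (0.834) and *rpl4* (0.829) for *agrp*. For *npy* they were *hmgn1* (0.850), *celf6* (0.838), *dlk1* (0.835), *fam108c* (0.835) and *tmem176b* (0.823).

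No receptor gene of the peptides passed the test of the current diet. Of 12 genes for NPY and AgRP receptors and accessory proteins, 9 could be tested, with *npy6r*, *ppyr1* (the Y4 receptor) and *dpp4* under the read minimum. In edgeR, limma and DESeq2 alike 0 of the 9 passed, where 0.047% of all genes passed in edgeR, so that this count says little about the receptors. Of the 9, 1 had an unadjusted p under 0.05, against 666 of all 12768 genes. The log2 fold changes of the 9 ran from -0.23 to 0.21 (median -0.02, beside 0.00 over all genes). The lowest was *npy2r* (-0.23, edgeR unadjusted p = 0.00623, adjusted p = 0.769), with 936 ± 64.5 reads in RC NoDS, 742 ± 78.8 in RC → HFD, 826 ± 177 in HFD → RC and 742 ± 64.2 in HFD NoDS. Of the 10 genes that process or package neuropeptides, 0 passed in edgeR, limma or DESeq2 (1 at an unadjusted p under 0.05; -0.11 to 0.18).

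Among the 13 receptor and hormone-sensing genes of AgRP neurons, 0 passed for the current diet in edgeR, limma or DESeq2. Of all 12768 genes, 6 passed in edgeR and 8 in limma. DESeq2 called 12 genes with independent filtering, whereas its count for the 13 is without it. At an unadjusted p under 0.05 in edgeR were 3 of the 13 and 666 of all genes. The farthest of the 13 was *ghsr* at -0.55. It had 300, 336, 323, 527 and 341 reads in RC NoDS, and 161, 173, 158, 217 and 232 in HFD NoDS. These libraries did not overlap, as for 0.893% of all genes, at a log2 fold change of -0.94 that did not pass in edgeR (adjusted p = 0.175) and passed in DESeq2 (adjusted p = 0.0227). In RC → HFD *ghsr* ran from 139 to 272 reads, again below every RC NoDS library (1.17% of all genes did not overlap here), at -0.81 (edgeR adjusted p = 0.408, DESeq2 adjusted p = 0.118). In HFD → RC it ran from 156 to 374, at -0.65 against RC NoDS (edgeR unadjusted p = 0.00533, adjusted p = 0.325; DESeq2 adjusted p = 0.199).

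Of the 20 genes for regulators of *agrp* and *npy* transcription, 19 were tested. For the current diet 0 passed in edgeR (4 at an unadjusted p under 0.05), against *stat3* in limma and *stat3* and *socs3* in DESeq2. Over all 12768 genes, 6 passed in edgeR and 8 in limma, and 666 had an unadjusted p under 0.05 in edgeR. DESeq2 called 12 genes with independent filtering, whereas its calls in the list are without it. *Stat3*, the transcription factor of leptin signalling, passed in 2 pairs in edgeR. It had 3967, 3636, 3839, 4195 and 3571 reads in HFD NoDS, 2888, 2776, 2973, 3403 and 3010 in RC NoDS, and 2661, 3131, 2738, 3213 and 3051 in HFD → RC. All HFD NoDS libraries were above those of both other groups (0.893% and 1.02% of all genes did not overlap), by a log2 fold change of 0.37 against RC NoDS (edgeR adjusted p = 0.0454) and 0.37 against HFD → RC (adjusted p = 0.0896). They were also above every RC → HFD library (2840 to 3475 reads; 0.744% of all genes did not overlap), by 0.28, which passed in DESeq2 (adjusted p = 0.0972) and not in edgeR (adjusted p = 0.354). *Socs3*, a feedback inhibitor of leptin signalling, was 0.59 on HFD against RC (edgeR adjusted p = 0.382, DESeq2 adjusted p = 0.0616) and 0.79 in HFD NoDS against RC NoDS (adjusted p = 0.469 in edgeR and 0.128 in DESeq2). In RC → HFD *stat3* was 3154 ± 242 reads (n = 6) against 3010 ± 237 in RC NoDS (n = 5). The mean reads of *agrp* and *npy* were lowest in RC → HFD, though neither gene passed between RC → HFD and HFD NoDS. *Isl1*, a factor of arcuate neuron identity, was lower in HFD → RC than in RC NoDS (528 ± 78.5 against 785 ± 89.1 reads, -0.55, edgeR adjusted p = 0.145); in limma no gene of this list passed in that pair.

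Of the 5 related or opposing peptides listed, *pomc* and *cartpt* could be tested; *pyy* was under the read minimum, and *ppy* and *asip* were not matched. *Cartpt*, which encodes the appetite-lowering peptide CART, moved opposite to the pair. It was higher on HFD by 0.58 (edgeR adjusted p = 0.00179), with 2966 ± 563 reads in RC NoDS, 3923 ± 594 in RC → HFD, 3247 ± 706 in HFD → RC and 5426 ± 496 in HFD NoDS. It passed in HFD NoDS against RC NoDS (0.89, adjusted p = 9.30e-04) and against HFD → RC (0.73, adjusted p = 0.0314).

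**Figure D5:**
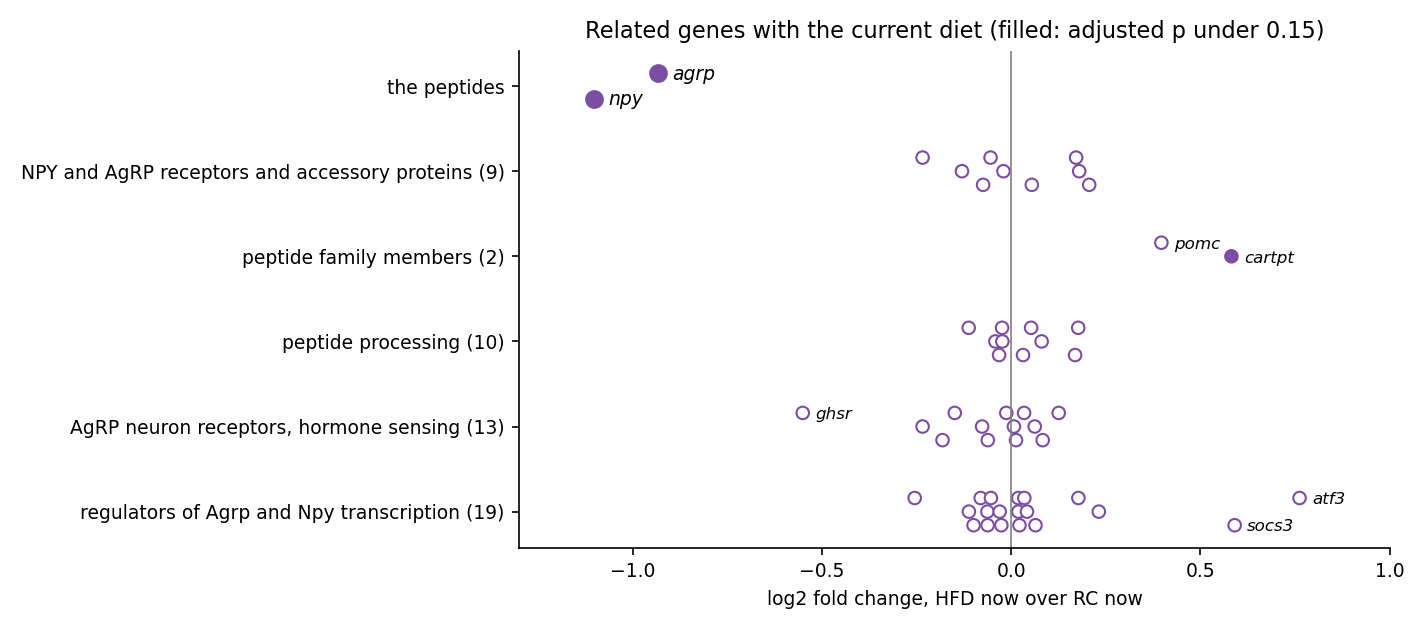
Log2 fold change of HFD against RC at collection (horizontal axis) for *agrp*, *npy* and the genes of 5 related lists, each point 1 gene; filled points passed an edgeR adjusted p of 0.15. *Agrp* and *npy* at -0.93 and -1.10 lie apart from their receptors, which run from -0.23 to 0.21, and *cartpt* at 0.58 is the only other gene that passed.

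The other markers of the tissue were read beside these results. Of 7 other markers of AgRP neurons (such as *corin* and *otp*), 0 passed in any comparison in edgeR. For the current diet, 6 of all 12768 genes passed in edgeR and 666 had an unadjusted p under 0.05. Of the 7 markers 1 had such a p, and limma and DESeq2 called 0. Their median log2 fold change was -0.08 for the current diet, 3 higher and 4 lower, with none at 0 reads. In RC → HFD against RC NoDS all 7 were lower (median -0.40). Of them 3 had an unadjusted p under 0.05, against 831 of all 12768 genes. DESeq2 without independent filtering called 1 of the 7. With that filtering it called 96 genes but gave neither peptide an adjusted p, so these DESeq2 counts are not alike. In HFD → RC against RC NoDS, where neither peptide passed, all 7 were lower too (median -0.41). Of the 7, 3 again had an unadjusted p under 0.05, against 1034 of all genes. DESeq2 called 1 of the 7 without independent filtering, and 147 genes with it. In HFD NoDS against RC NoDS 5 of the 7 were lower and 2 higher (median -0.14). Against HFD → RC, where *npy* was lower in HFD NoDS, 6 were higher and 1 lower (median 0.20). Here 2 of the 7 had an unadjusted p under 0.05, against 1013 of all genes. For the interaction all 7 were higher (median 0.52), 4 at such a p, against 1129 of all genes. The sum of the 7 was 446 to 603 CPM in RC NoDS, 321 to 488 in RC → HFD, 311 to 426 in HFD → RC and 398 to 507 in HFD NoDS. All 5 tanycyte markers were lower in RC → HFD than in RC NoDS (median -0.39). Of the 5 markers 0 passed and 5 had an unadjusted p under 0.05, against 5 and 831 of all 12768 genes. The tanycyte markers were also all lower in HFD → RC than in RC NoDS (0 passed, median -0.29). In HFD NoDS all were higher than in HFD → RC (0 passed, median 0.33), where *npy* was lower. All 4 oligodendrocyte markers had higher levels in HFD → RC than in RC NoDS, with summed CPM of 2385 to 7454 against 1929 to 2857. Of them 3 passed in edgeR and 0 in limma, where 36 and 7 of all 12768 genes passed. DESeq2 called 3 of the 4 without independent filtering, and 147 genes with it. The same 4 were higher, each at an unadjusted p under 0.05 with 0 passing, in HFD NoDS than in RC NoDS (median 0.65) and in HFD → RC than in RC → HFD (median 0.69). Over all genes, 946 and 683 of 12768 had such a p in these pairs. Of 5 markers of the ventromedial nucleus, 4 were higher and 1 lower in RC → HFD than in RC NoDS (0 passed, median 0.33). All 5 were higher in HFD → RC than in RC NoDS (0 passed, median 0.34). *Hcrt* of the lateral hypothalamus had 28 to 105 reads in RC NoDS, 58 to 355 in RC → HFD, 87 to 437 in HFD → RC and 93 to 1051 in HFD NoDS. It was higher in HFD NoDS than in RC NoDS by 2.71 on the log2 scale (SE 0.557, edgeR adjusted p = 0.0513), where both peptides were lower. Its difference was 1.46 in RC → HFD against RC NoDS (unadjusted p = 0.0102, adjusted p = 0.685) and 1.14 for the current diet (unadjusted p = 0.00460, adjusted p = 0.745), where both peptides were lower as well. *Hcrt* was also higher where neither peptide passed. The difference was 1.90 in HFD → RC against RC NoDS (edgeR unadjusted p = 0.0018, adjusted p = 0.206) and 1.57 for the earlier diet (unadjusted p = 2.02e-04, adjusted p = 0.178). Of the 3 lateral hypothalamus markers listed, 2 were tested, and the other 1 differed less and never passed. It was 0.47 in HFD NoDS, 0.90 in RC → HFD and 0.23 in HFD → RC, each against RC NoDS. For the current diet it was 0.57, and for the earlier diet -0.10, opposite to *hcrt*. With *hcrt* as a covariate, the peptide differences in HFD NoDS against RC NoDS were -1.18 for *agrp* (adjusted p = 0.140) and -1.19 for *npy* (adjusted p = 0.0151). Beyond the covariate fits given above, the part of these markers in the peptide differences was not tested.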

How the data were processed

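The VH of 21 pools of 2 mice was sequenced as polyadenylated, stranded, single-end RNA libraries. The deposited values are whole-number read counts per gene: per the labels and the study's methods, the authors merged the runs of each library with Picard 2.7.1, aligned them with STAR 2.5.1b to mm9, removed ribosomal and mitochondrial reads and re-sampled each library to a common depth with PORT, on Ensembl gene models. Depth was 16380781 to 16390598 reads per library, which limits the counting error of reads but not that of the fewer distinct molecules behind them. Pools the authors had dropped were not analysed here, and no sample column was left unmapped. For the 45 library pairs within groups, chi-square per degree of freedom was 6.89 to 42.0, and 0 pairs were identical.

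Genes averaging at least 50 reads (the rule of the study's High Filter, here 12768 of the 21654 genes of the deposited table, so that gene totals need not be those of the study) were fitted over all 21 libraries with 1 mean per group (R 4.3.3, edgeR 4.0.16, TMM, quasi-likelihood F-test, Benjamini-Hochberg over all genes tested, threshold 0.15 as in the study). P-values measure the spread between pools of different mice. Ratios were compared by two-sided exact permutation tests (threshold 0.05), and deviations of log2 CPM (offset 0.5 reads) from group means by 100000 permutations within groups (scipy 1.17.1 and numpy 2.4.6 in Python 3.11.15, with pandas 2.3.3; figures in matplotlib 3.10.9). Alternatives used limma 3.58.1, DESeq2 1.42.0, other filters and normalizations, covariates and leaving out each library. Share of ribosomal RNA reads came from the study's library records. Distinct molecules were estimated from the zeros among 3116 genes averaging 5 to 50 reads. Exon lengths and coding sequences came from the NCBIM37 annotation, the promoter from RefSeq (GRCm38.p6). Scripts were tested on simulated data.

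Named were the 2 members, every gene of 5 lists that passed in edgeR in any comparison plus *pomc* and *cartpt*, and the 5 genes most like each member by levels and by deviations; *npy2r* and *ghsr* were also described as the lowest of their lists, *socs3* as a gene that passed in DESeq2, and *hcrt* as a marker. DESeq2 values of list genes are without independent filtering, while DESeq2 counts over all genes are with it. The members, lists and tests were chosen with earlier results of these data known.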

Additional observations from a re-analysis of the deposited data

Results flagged for a closer look

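Of 20 groups of values searched for a library far from the others, 1 was found, which is the share that chance gives (about 1 in 20). In RC NoDS the log2 ratio of *npy* to *agrp* was 1.81 in library 3, against 1.94 to 1.99 in the other 4 libraries. Its gap to the nearest library was 0.748 of the range of the group, above the critical value of 0.710 for 5 libraries. *Agrp* and *npy* reads of this library, 1212 and 4258, gave no such gap.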

How the results depend on the processing

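Of 288 values of the 39 results under other filters, normalizations, tools and covariates, 275 kept their direction and their side of the threshold, and so did 608 of 630 values with 1 library left out. *Agrp* in HFD NoDS against RC NoDS no longer passed with robust dispersion (-0.97, adjusted p = 0.255) or with ribosomal RNA as a covariate (-0.77). *Agrp* in HFD → RC against RC → HFD passed without a read minimum (0.90, adjusted p = 0.0772), with the arcuate score as a covariate (0.95, adjusted p = 0.0721) and in DESeq2 (0.90, adjusted p = 0.120, also without independent filtering). *Npy* no longer passed with robust dispersion in that pair (0.94, adjusted p = 0.530), nor in HFD NoDS against HFD → RC with robust dispersion (-0.89, adjusted p = 0.162), ribosomal RNA (-0.80) or a fit of these groups alone (-0.89, adjusted p = 0.341). Values near 0 changed sign for *agrp* and the earlier diet (0.022 with ribosomal RNA) and for *npy* in HFD NoDS against RC → HFD (-0.0012 with molecules, -0.11 with the arcuate score). The cause of these shifts was not tested. DESeq2 gave no adjusted p for either gene in RC → HFD against RC NoDS, so the version without independent filtering was added after seeing the data.

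With 1 library left out, *agrp* ran from -1.12 to -0.85 in HFD NoDS against RC NoDS, from 0.71 to 1.06 in HFD → RC against RC → HFD and from -0.13 to 0.045 for the earlier diet, and *npy* from -1.01 to -0.73 in HFD NoDS against HFD → RC and from -0.070 to 0.12 in HFD NoDS against RC → HFD. In HFD NoDS against RC → HFD *agrp* ran from 0.12 to 0.39, and for the earlier diet *npy* ran from -0.24 to -0.12. The log2 ratio of *npy* to *agrp* ran from -0.35 to -0.16 in HFD NoDS against RC NoDS, where it passed without HFD NoDS library 19 (adjusted p = 0.0357), from -0.0078 to 0.18 in HFD → RC against RC → HFD and from -0.086 to 0.11 in HFD → RC against RC NoDS. *Agrp* to *pomc* ran from -1.17 to -0.68 in HFD NoDS against HFD → RC, where it passed without HFD → RC library 15 (adjusted p = 0.0179), and *npy* to *pomc* from -0.00034 to 0.20 in HFD NoDS against RC → HFD. In HFD → RC against RC NoDS *agrp* to *pomc* ran from -0.72 to -0.23 and *npy* to *pomc* from -0.62 to -0.25, none of which passed. The correlation of the pair ran from 0.733 to 0.840. Numbers of genes that passed varied with the setting: 4 to 12 for the current diet (6 as reported), 5 to 17 in HFD NoDS against RC NoDS (10), 4 to 96 in RC → HFD against RC NoDS (5), 0 to 41 in HFD → RC against RC → HFD (1), 1 to 44 in HFD NoDS against HFD → RC (9), 1 to 205 in HFD → RC against RC NoDS (36), 1 to 32 in HFD NoDS against RC → HFD (2), 2 to 70 for the earlier diet (9), 0 to 291 for the interaction (4) and 9 to 133 across all groups (19). No paired analysis was possible because the groups share no replicate numbers. With 5 or 6 pools a group and few distinct molecules in some libraries, differences smaller than those that passed may have gone undetected.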
